A study of Mus musculus with 6 samples.

Results

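The expression of 7 genes of androgen and estrogen metabolism and of Insl3, a hormone gene of theca cells, was compared between ovaries of wild-type and Bnc1-mutant mice. The 8 genes were Cyp17a1, Cyp19a1, Hsd17b1, Hsd17b2, Srd5a1, Por, Sult1e1 and Insl3, chosen by symbol from the 44788 genes of the count table, and all 8 were listed there. The ovaries came from C57BL/6 J mice that were 8 weeks old according to the labels. The groups were Bnc1+/+, the wild type (replicates 1, 4 and 7), and Bnc1tr/tr (replicates 1, 2 and 3). Bnc1tr/tr mice were homozygous for a germline deletion in an exon of Bnc1 that shifts the reading frame and ends the transcript's coding part early, so every cell of the mouse carries it, and the mice were offspring of Bnc1+/tr matings. The methods describe comparisons between littermates and the ovaries as biological replicates, but the labels give no litter, mouse, treatment or estrous stage for the 6 samples, and the p values below measure the spread between them. Total RNA of whole ovary was sequenced as single-end reads on the Ion Proton platform, and a table of read counts per gene was deposited.

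Steroid synthesis in the ovary is shared between cell types. Theca cells around the follicle turn cholesterol into androgens under luteinizing hormone, and granulosa cells inside it turn those androgens into estrogens under follicle-stimulating hormone. CYP17A1, with electrons from the reductase POR, makes androgen precursors in theca cells, CYP19A1 (aromatase) makes estrogens in granulosa cells, HSD17B1 raises the activity of a steroid by reducing it and HSD17B2 lowers it by oxidizing it, SRD5A1 reduces testosterone to dihydrotestosterone, and SULT1E1 adds sulfate to estrogens. INSL3 is a peptide hormone of theca cells and a common marker of them.

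Totals ran from 25247770 to 34406296 counts per ovary, and levels are given as CPM, the counts of a gene per 1000000 counts of its library after TMM scaling (a factor that offsets differences in RNA composition). Of 19423 genes that passed the filter on low counts (edgeR's filterByExpr, minimum count 10), 1372 (7.06%) passed an adjusted p of 0.05 in edgeR's quasi-likelihood test, 559 (2.88%) higher and 813 (4.19%) lower in Bnc1tr/tr, while scaling by library size alone gave 1112 higher and 616 lower. The targeted gene Bnc1 had 13.9, 13.4 and 13.1 CPM in Bnc1+/+ and 18.7, 13.7 and 11.5 CPM in Bnc1tr/tr, with a log2 fold change of 0.12 (SE 0.18, edgeR adjusted p = 0.733). A small deletion need not lower the count of a gene, so this level does not check the genotype labels. Ovary markers were present in every sample: Inha, the inhibin alpha subunit of granulosa cells, had 1980 to 3930 CPM and the oocyte gene Gdf9 had 140 to 339 CPM. Genes of neighboring tissue differed between ovaries: the summed CPM of 7 oviduct epithelium genes was 139, 23.5 and 23.1 in the Bnc1+/+ and 13.4, 30.6 and 516 in the Bnc1tr/tr ovaries, and that of 6 adipose genes was 45.3, 13.7 and 81.4 in the Bnc1+/+ and 279, 215 and 29.7 in the Bnc1tr/tr ovaries.

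The sequences before the start sites of 3 of the genes are shown, because Srd5a1 was the gene that passed the test, Cyp19a1 is known for its alternative first exons, and Insl3 lies inside another gene. They were taken from RefSeq (GRCm38.p6), and the promoter table used here listed starts for 5 of the 8 genes; each is written 5′ to 3′ on the strand of the gene. The Srd5a1 stretch is chr13:69611464-69611713 (minus strand) and ends at the base before the start listed for it, although the widest RefSeq extent of the gene reaches 69611485. The Cyp19a1 stretch is chr9:54193744-54193993 (minus strand) and precedes the start site nearest to the coding part, 342 bases from the start codon; the other 2 listed starts lie 35513 and 74763 bases from it. The Insl3 stretch is chr8:71689002-71689213 (plus strand), stops where the GENCODE M21 exon of Insl3 begins, and lies in an intron of the gene Jak3. Capitals mark TATAAA or its reverse complement TTTATA.
Srd5a1: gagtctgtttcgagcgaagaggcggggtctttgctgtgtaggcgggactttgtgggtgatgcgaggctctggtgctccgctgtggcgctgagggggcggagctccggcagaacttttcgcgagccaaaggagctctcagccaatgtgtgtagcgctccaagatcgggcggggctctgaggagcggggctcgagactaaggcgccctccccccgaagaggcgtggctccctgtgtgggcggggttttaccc
Cyp19a1: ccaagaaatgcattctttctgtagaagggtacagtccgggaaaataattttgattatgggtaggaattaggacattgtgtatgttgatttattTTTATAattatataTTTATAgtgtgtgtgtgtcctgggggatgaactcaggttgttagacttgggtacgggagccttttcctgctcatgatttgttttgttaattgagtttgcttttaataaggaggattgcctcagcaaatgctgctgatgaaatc
Insl3: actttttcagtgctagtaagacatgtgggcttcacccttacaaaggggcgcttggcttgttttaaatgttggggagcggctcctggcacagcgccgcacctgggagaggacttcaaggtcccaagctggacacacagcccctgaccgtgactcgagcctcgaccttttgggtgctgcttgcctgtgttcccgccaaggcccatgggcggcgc

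TATAAA on either strand occurred in 12.4% of 32851 RefSeq promoters over the 250 bases before the start, and among the stretches shown only that of Cyp19a1 held it, at 157 and 143 bases before the start. The Cyp19a1 start 35513 bases from the start codon, whose stretch is not shown, held TATAAA at 31 and 29 bases before it, on either strand. The Srd5a1 stretch had a GC content of 64.8% and the Cyp19a1 stretch 36.8%. Neither CAAGGNCA, the site bound by the steroidogenic factors NR5A1 and NR5A2, nor TGACGTCA, the cAMP response element, was found on either strand in the 250 bases before any of the 7 starts listed for the 5 genes. Only 5.53% and 1.55% of all promoters held them, so their absence is not particular to these genes. These are matches of letters and not measurements of binding.

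One of the 7 genes tested, Srd5a1, rose in Bnc1tr/tr ovaries, and 6 did not pass the test. The other gene, Sult1e1, had too few counts to be tested. The share of all tested genes that passed was 7.06% (2.88% higher, 4.19% lower). The 7 log2 fold changes had a median of 0.24, beside 0.018 over all genes tested, and 4 of the 7 were above 0. This median was −0.27 with limma-voom, −0.52 without Bnc1tr/tr replicate 1 and 0.03 without Bnc1tr/tr replicate 2. The CPM of the genotypes did not overlap for 2 of the 7, Srd5a1 and Hsd17b2, and for 30.8% of all tested genes. Fewer cells of a type and less RNA per cell cannot be told apart in whole ovary.

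**Figure D1:**
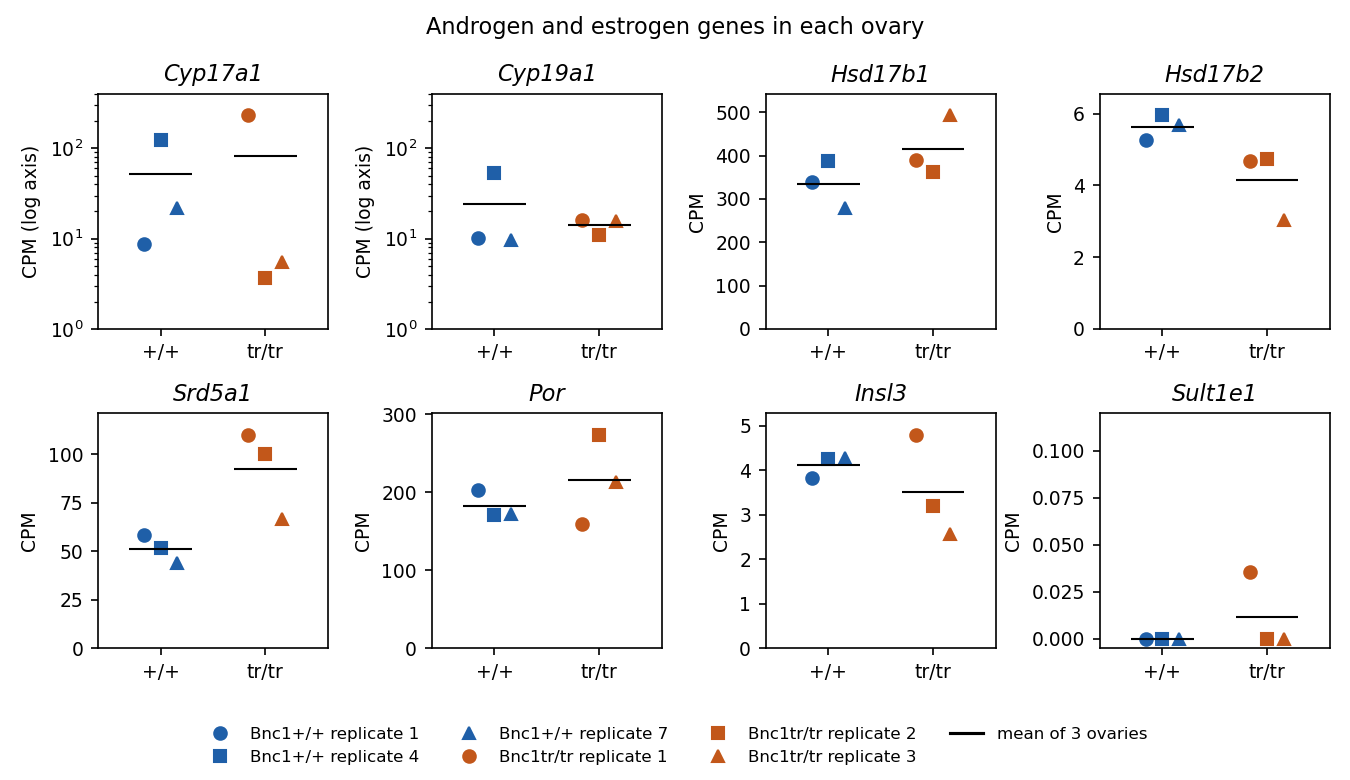
CPM of each of the 8 genes (vertical axes, logarithmic for Cyp17a1 and Cyp19a1 and linear from 0 for the others, Sult1e1 from just below 0) in the 3 Bnc1+/+ (blue) and 3 Bnc1tr/tr (orange) ovaries, with the marker shape giving the replicate and the black line the mean. Srd5a1 lay at or above 66.7 CPM in every Bnc1tr/tr ovary and at or below 58.1 CPM in every Bnc1+/+ ovary, whereas Cyp17a1 was highest in Bnc1+/+ replicate 4 and Bnc1tr/tr replicate 1.

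Srd5a1 (ENSMUSG00000021594.11, chromosome 13, 69573449 to 69611442, minus strand in GRCm38 with GENCODE M21) encodes steroid 5α-reductase type 1, which makes dihydrotestosterone from testosterone and also reduces progesterone. It had 58.1, 51.7 and 44 CPM in Bnc1+/+ replicates 1, 4 and 7 and 110, 100 and 66.7 CPM in Bnc1tr/tr replicates 1, 2 and 3. All 3 mutant ovaries lay above all 3 wild-type ovaries, with replicate 3 the lowest of the mutants. The mean rose from 51.3 ± 7.05 to 92.5 ± 22.9 CPM (SD, n = 3), a 1.8-fold difference. On the log2 scale this was 0.85 (SE 0.19, 95% interval 0.41 to 1.29, edgeR adjusted p = 0.0403). The call held with each of the 7 other scalings, filters and tools, with adjusted p values from 0.000484 to 0.0474. It was lost when any ovary but Bnc1tr/tr replicate 3 was left out: the edgeR adjusted p was 0.0712, 0.145 and 0.132 without Bnc1+/+ replicates 1, 4 and 7 and 0.0742 and 0.0793 without Bnc1tr/tr replicates 1 and 2, and the log2 fold change then ran from 0.70 to 0.94. Without Bnc1tr/tr replicate 3 it was 1.04 with an adjusted p of 0.0146. The summed CPM of the adipose genes was 279, 215 and 29.7 in mutant replicates 1, 2 and 3 and 13.7 to 81.4 in Bnc1+/+, and their part in the Srd5a1 difference was not tested. The non-coding gene Gm17108 on the same strand shares 476 exon bases with Srd5a1 (16.4% of its exon bases), and reads from these bases cannot be assigned to either gene with certainty.

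Cyp17a1 (ENSMUSG00000003555.8, chromosome 19, 46667165 to 46673172, minus strand) encodes the 17α-hydroxylase and 17,20-lyase that turns progestins into androgens. It had 8.62, 124 and 21.6 CPM in Bnc1+/+ and 235, 3.65 and 5.46 CPM in Bnc1tr/tr ovaries, from counts of 232, 4093 and 627 against 6614, 95 and 155. The highest and the lowest values both came from Bnc1tr/tr, and the wild-type values lay between them. Within a genotype the highest ovary exceeded the lowest 14.3-fold in Bnc1+/+ and 64.3-fold in Bnc1tr/tr. The SD of log2 CPM within a genotype was 2.71, and only 13 of 19423 tested genes (0.0669%) had a larger one, beside a median of 0.19 over all genes. The means of 51.3 ± 62.9 and 81.4 ± 133 CPM (SD, n = 3) therefore did not describe single ovaries. The log2 fold change was 0.66 (SE 1.50, edgeR adjusted p = 0.824), and its 95% interval ran from −2.81 to 4.13, so neither direction could be read. Without Bnc1tr/tr replicate 1 the estimate was −3.49 (adjusted p = 0.125), without Bnc1+/+ replicate 4 it was 2.41, and limma-voom gave −0.80.

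Por (ENSMUSG00000005514.14, chromosome 5, 135670033 to 135735326, plus strand) encodes cytochrome P450 oxidoreductase, the electron donor of CYP17A1, CYP19A1 and the other P450 enzymes of the endoplasmic reticulum. Its levels were 203, 171 and 172 CPM in Bnc1+/+ and 159, 274 and 213 CPM in Bnc1tr/tr. Bnc1tr/tr replicate 1, where Cyp17a1 was highest, had the lowest Por of all 6 ovaries. The means were 182 ± 17.8 and 215 ± 57.8 CPM (SD, n = 3), with a log2 fold change of 0.24 (SE 0.19, 95% interval −0.19 to 0.67, edgeR adjusted p = 0.474).

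Cyp19a1 (ENSMUSG00000032274.9, chromosome 9, 54165937 to 54268110, minus strand) encodes aromatase. It had 10.1, 53.8 and 9.58 CPM in Bnc1+/+ and 16, 11 and 15.5 CPM in Bnc1tr/tr ovaries. Bnc1+/+ replicate 4 stood alone at the top, and the other 5 ovaries lay between 9.58 and 16 CPM. In those 5, each mutant ovary was above both wild-type ovaries, opposite in direction to the means of 24.5 ± 25.4 and 14.2 ± 2.76 CPM (SD, n = 3). The log2 fold change was −0.79 (SE 0.63, 95% interval −2.26 to 0.68, edgeR adjusted p = 0.49), and it was 0.52 (adjusted p = 0.245) without Bnc1+/+ replicate 4. Its spread within a genotype (SD 1.02 on the log2 scale) was exceeded by 326 tested genes (1.68%). Bnc1+/+ replicate 4 also had the highest wild-type level of Cyp17a1, but the ovary with the highest Cyp17a1 of all, Bnc1tr/tr replicate 1, had Cyp19a1 at 16 CPM.

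The log2 ratio of Cyp19a1 to Cyp17a1 within an ovary was 0.23, −1.20 and −1.17 in the Bnc1+/+ and −3.87, 1.58 and 1.50 in the Bnc1tr/tr ovaries (counts plus 0.5). Mutant replicate 1 was the lowest of the 6 and the other 2 mutant ovaries the highest. The means, −0.71 ± 0.82 and −0.26 ± 3.13 (SD, n = 3), differed by 0.45 (exact two-sided permutation test, p = 0.8, 0.8 after Benjamini-Hochberg adjustment over 4 ratios). With 3 ovaries against 3 the smallest p of this test is 0.1.

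Hsd17b1 (ENSMUSG00000019301.5, chromosome 11, 101078411 to 101080527, plus strand) encodes the granulosa cell enzyme that makes estradiol from estrone. It was the most abundant of the 8 genes, with 339, 387 and 280 CPM in Bnc1+/+ and 391, 362 and 493 CPM in Bnc1tr/tr ovaries. The genotypes overlapped through wild-type replicate 4 and mutant replicate 2. The means were 335 ± 53.8 and 415 ± 68.6 CPM (SD, n = 3), and the log2 fold change was 0.31 (SE 0.16, 95% interval −0.05 to 0.67, edgeR adjusted p = 0.27).

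Hsd17b2 (ENSMUSG00000031844.8, chromosome 8, 117701904 to 117759027, plus strand) encodes the enzyme of the reverse step, which turns estradiol into estrone and testosterone into androstenedione. It was low, with 5.27, 5.95 and 5.69 CPM in Bnc1+/+ and 4.69, 4.73 and 3.03 CPM in Bnc1tr/tr, from 86 to 197 counts per ovary. No mutant ovary reached the lowest wild-type ovary, as for 30.8% of all tested genes. The means were 5.63 ± 0.34 and 4.15 ± 0.972 CPM (SD, n = 3), the log2 fold change was −0.44 (SE 0.21, 95% interval −0.94 to 0.05), and the edgeR adjusted p was 0.252.

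Set against each other within an ovary, the log2 ratio of Hsd17b1 to Hsd17b2 counts was 6.00, 6.02 and 5.62 in the Bnc1+/+ and 6.38, 6.25 and 7.34 in the Bnc1tr/tr ovaries. Every mutant ratio lay above every wild-type ratio, and mutant replicate 3 was the farthest. The means of 5.88 ± 0.23 and 6.66 ± 0.59 (SD, n = 3) differed by 0.78, with p = 0.1 in the exact two-sided permutation test, the smallest it can give, and 0.4 after adjustment over the 4 ratios. This difference therefore did not pass the test.

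Sult1e1 (ENSMUSG00000029272.8, chromosome 5, 87575969 to 87591594, minus strand) encodes estrogen sulfotransferase, which inactivates estrogens. It had 0 counts in 5 ovaries and 1 count in Bnc1tr/tr replicate 1. A count of 0 allows up to 3 counts, 0.0906 to 0.115 CPM in these libraries, a limit that covers counting error only. No fold change was given. The log2 ratio of Sult1e1 to Cyp19a1 was computed as the fourth ratio (difference 0.94, exact two-sided permutation test p = 0.6, adjusted p = 0.8), but its upper part was at the limit in every ovary and it was not read.

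**Figure D2:**
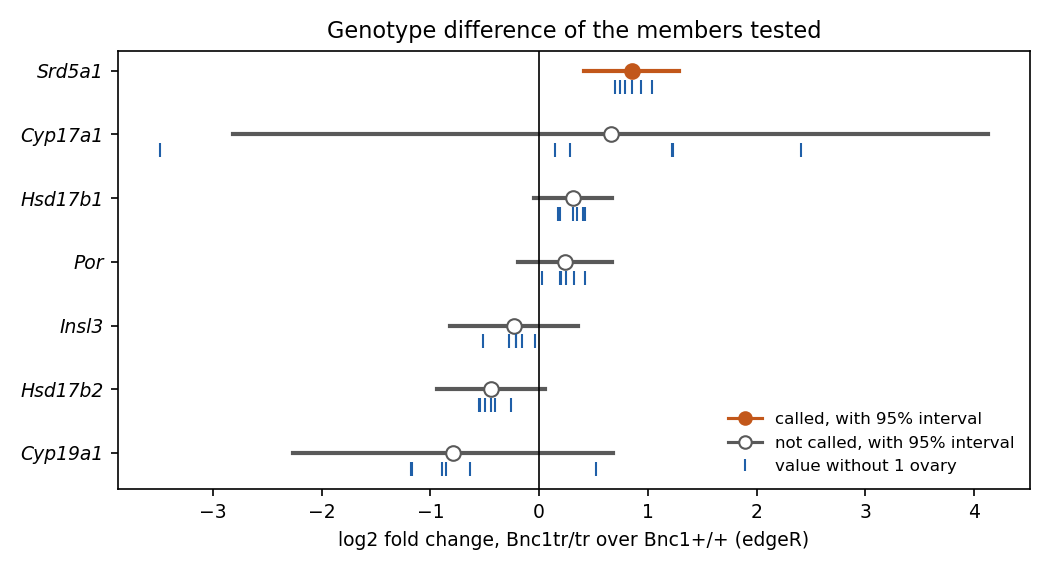
Log2 fold change of the 7 tested genes (horizontal axis, Bnc1tr/tr over Bnc1+/+, edgeR) with 95% intervals, filled orange where the adjusted p was under 0.05 and open where it was not, and blue ticks for the values after leaving out each ovary in turn. Only the Srd5a1 interval (0.41 to 1.29) lay wholly on one side of 0, and the ticks of Cyp17a1 and Cyp19a1 fell on both sides.

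Insl3 (ENSMUSG00000079019.2, chromosome 8, 71689214 to 71690575, plus strand) encodes insulin-like peptide 3. It was low, with 3.82, 4.26 and 4.27 CPM in Bnc1+/+ and 4.8, 3.19 and 2.57 CPM in Bnc1tr/tr ovaries, from 73 to 141 counts. Mutant replicate 1 was the highest of the 6 and the other 2 mutant ovaries the lowest. The means were 4.12 ± 0.254 and 3.52 ± 1.15 CPM (SD, n = 3), with a log2 fold change of −0.23 (SE 0.25, 95% interval −0.82 to 0.36, edgeR adjusted p = 0.632). The ratio of the highest to the lowest ovary was 1.12 in Bnc1+/+ and 1.87 in Bnc1tr/tr, against 14.3 and 64.3 for Cyp17a1, the enzyme of the same cells. The log2 ratio of Insl3 to Cyp17a1 ran from −4.85 to −1.17 in Bnc1+/+ and from −5.61 to −0.19 in Bnc1tr/tr, and its means of −2.79 ± 1.88 and −2.29 ± 2.90 (SD, n = 3) differed by 0.49 (exact two-sided permutation test, p = 0.7, adjusted p = 0.8).

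The Insl3 counts could not be separated from those of Jak3, a kinase gene of cytokine signaling in lymphocytes. Insl3 lies wholly inside Jak3 (71676296 to 71690575) on the same strand. Its exon 2 (71690172 to 71690575, 404 bases, 64.8% of the Insl3 exon bases) is also annotated as Jak3 exon, while its exon 1 (71689214 to 71689432, 219 bases) is not. How reads on shared bases were assigned is not given in the sources used here. Per kilobase of exon, Insl3 had 6.61 ± 0.408 CPM in Bnc1+/+ and 5.65 ± 1.84 in Bnc1tr/tr, and Jak3 had 5.05 ± 0.629 and 3.8 ± 0.492 (SD, n = 3), so the levels of the 2 genes were of the same order. The number of Insl3 counts per Jak3 count was 0.161, 0.158 and 0.14 in the Bnc1+/+ and 0.213, 0.151 and 0.147 in the Bnc1tr/tr ovaries, highest in mutant replicate 1. Jak3 itself had 23.7, 27 and 30.4 CPM in Bnc1+/+ and 22.5, 21.1 and 17.4 CPM in Bnc1tr/tr. Its genotypes did not overlap, as for 30.8% of all tested genes, and it did not pass the test (log2 fold change −0.41, SE 0.14, edgeR adjusted p = 0.114).

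**Figure D3:**
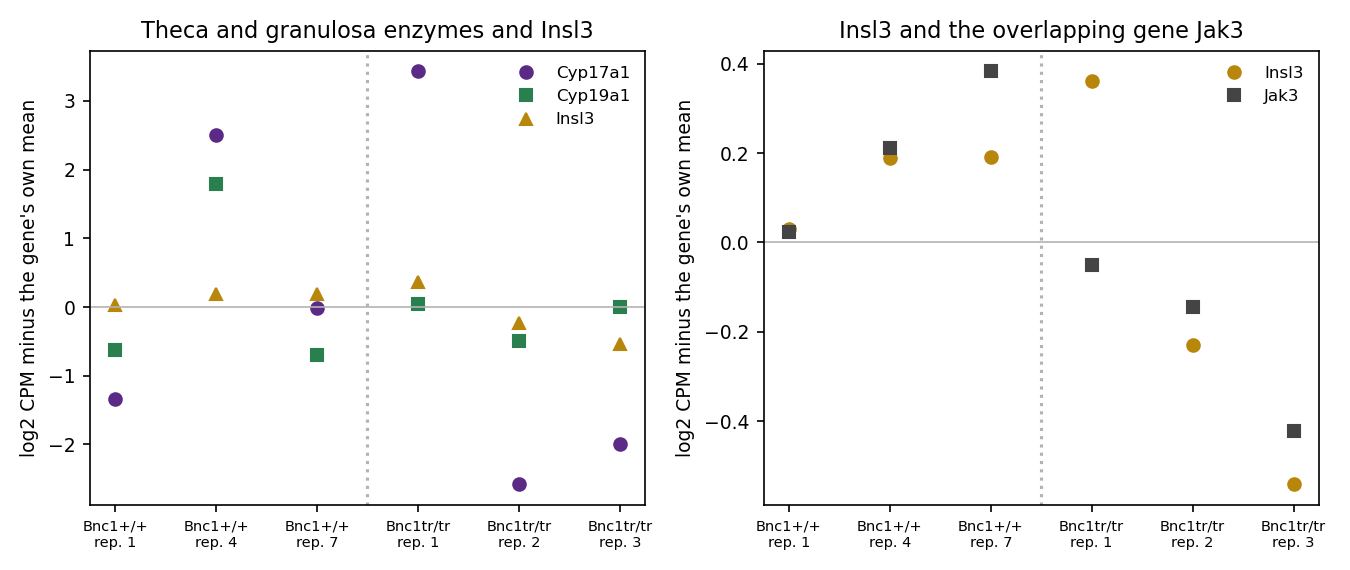
Log2 CPM of single genes minus the mean of the gene over the 6 ovaries (vertical axes) in each ovary (horizontal axes), for Cyp17a1, Cyp19a1 and Insl3 on the left and Insl3 with Jak3 on the right, with the dotted line between the genotypes and different vertical scales. Cyp17a1 and Cyp19a1 were both high in Bnc1+/+ replicate 4. In Bnc1tr/tr replicate 1 Cyp17a1 and Insl3 each had their highest value (235 and 4.8 CPM), and Cyp19a1 had 16 CPM. Insl3 was the flattest of the 3, with a root mean square deviation of 0.296.

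Compared per kilobase of exon, the order of the mean levels in Bnc1+/+ was Hsd17b1 (250 ± 40.2), Por (45.3 ± 4.44), Cyp17a1 (18.5 ± 22.7), Srd5a1 (17.6 ± 2.42), Insl3 (6.61 ± 0.408), Cyp19a1 (5.41 ± 5.61) and Hsd17b2 (2.93 ± 0.176 CPM per kilobase, SD, n = 3), with Sult1e1 at 0. In Bnc1tr/tr the order was Hsd17b1 (310 ± 51.3), Por (53.5 ± 14.4), Srd5a1 (31.8 ± 7.87), Cyp17a1 (29.4 ± 48), Insl3 (5.65 ± 1.84), Cyp19a1 (3.13 ± 0.61) and Hsd17b2 (2.16 ± 0.505), and Sult1e1 was last. Hsd17b1, at 209 to 368 CPM per kilobase, lay above every other gene in every ovary, and Por lay above Srd5a1 in every ovary. Cyp17a1 had no fixed place, since at 1.32 to 84.9 CPM per kilobase its values overlapped those of Por, Srd5a1, Insl3, Cyp19a1 and Hsd17b2. Cyp19a1 overlapped Hsd17b2 in both genotypes and Insl3 in Bnc1+/+ but not in Bnc1tr/tr.

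Among 11404 tested genes with a mean of at least 10 CPM, those whose pattern over the 6 ovaries came nearest to Cyp17a1 were Slc38a3, a glutamine transporter (root mean square difference 1.13 on the log2 scale), Phyhip (1.43) and Mug2 (1.46), where Cyp17a1 itself deviated from its mean by 2.24. Slc38a3 had 51.7, 102 and 107 CPM in Bnc1+/+ and 209, 11.7 and 19.9 CPM in Bnc1tr/tr, and like Cyp17a1 it was highest in mutant replicate 1 and lowest in the other 2 mutant ovaries. Nearest to Cyp19a1 were Rps13 (0.42), Gm16385 (0.57) and Gm6061 (0.58), against 0.847 for Cyp19a1 itself. Rps13 is a ribosomal protein gene of the kind with many near-identical copies, so its counts are uncertain. Insl3 had Arhgap22 (0.05), Ano6 (0.09) and the cadherin gene Fat1 (0.10) as nearest genes, against 0.296 for Insl3 itself. These are descriptions over 6 ovaries, and a gene with deviations as small as those of Insl3 can have near neighbors among many genes. Insl3 was flat only beside Cyp17a1 and Cyp19a1. Its SD of log2 CPM within a genotype was 0.32, above the median of 0.19 over all genes, and 26.3% of tested genes had a larger one.

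The other genes of the pathway were described by lists. Of 7 genes that act before androgen synthesis, 3 fell in Bnc1tr/tr and none rose, beside 4.19% of all tested genes called lower, and all 7 log2 fold changes were below 0 (median −0.90). Star, which carries cholesterol into mitochondria, had 2178, 2563 and 1632 CPM in Bnc1+/+ and 151, 689 and 515 CPM in Bnc1tr/tr (log2 fold change −2.23, SE 0.49, edgeR adjusted p = 0.0374). Cyp11a1, the side-chain cleavage enzyme that makes pregnenolone from cholesterol, had 9045, 10617 and 10782 CPM against 1973, 4818 and 3838 CPM (−1.52, SE 0.29, edgeR adjusted p = 0.0261). Hsd3b1, which makes progesterone from pregnenolone, had 8035, 9019 and 8212 CPM against 3946, 5795 and 5583 CPM (−0.72, SE 0.16, edgeR adjusted p = 0.0391). All 3 were lowest in mutant replicate 1, the ovary with the highest Cyp17a1. Leaving out any wild-type ovary or mutant replicate 3 left 0 of the 7 called, and over the 13 alternatives the number ran from 0 to 5. Luteal cells express these 3 genes strongly, and the summed CPM of 6 luteal markers was also lower in every mutant ovary. This sum was 3585, 5084 and 5796 for wild-type replicates 1, 4 and 7. For mutant replicates 1, 2 and 3 it was 1187, 1333 and 1158. Within the wild type the sum ranked the ovaries as Cyp11a1 did, but not as Star or Hsd3b1 did. Among the mutants it was lowest in replicate 3, whereas all 3 genes were lowest in replicate 1. The part of luteal cells in the result was not tested.

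Of 6 redox partner genes, which serve P450 enzymes or supply reduced cofactors, none passed the test (median log2 fold change −0.02). Cyb5a, the cytochrome b5 that favors the lyase step of CYP17A1, had 463, 543 and 448 CPM in Bnc1+/+ and 469, 333 and 389 CPM in Bnc1tr/tr (log2 fold change −0.29, edgeR adjusted p = 0.257). Cyb5r3, a reductase of cytochrome b5, had 287 to 294 CPM in Bnc1+/+ and 220 to 275 CPM in Bnc1tr/tr (−0.20, edgeR adjusted p = 0.279).

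Among 10 other 17β-hydroxysteroid dehydrogenases, 7 were tested, of which 2 fell and none rose (median log2 fold change −0.07), beside 4.19% of all tested genes called lower. Hsd17b7, which acts both on estrone and in cholesterol synthesis, fell from 415, 775 and 998 CPM to 91.1, 28.4 and 34.7 CPM (log2 fold change −3.82, SE 0.52, edgeR adjusted p = 0.00683), and it kept its call in all 13 alternatives. Hsd17b12, mainly an enzyme of fatty acid elongation, fell from 80.4, 95.7 and 85.5 CPM to 62.7, 59.1 and 62.3 CPM (−0.51, SE 0.09, edgeR adjusted p = 0.0175), a call lost without Bnc1+/+ replicate 4 or 7 or Bnc1tr/tr replicate 3 (adjusted p = 0.0732, 0.0527 and 0.0585). The reductase Hsd17b3, which makes testosterone in the testis, had 0.483 to 0.827 CPM in Bnc1+/+ and 0.746 to 1.85 CPM in Bnc1tr/tr and did not pass (edgeR adjusted p = 0.161). Hsd17b8 was not analysed here.

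**Figure D4:**
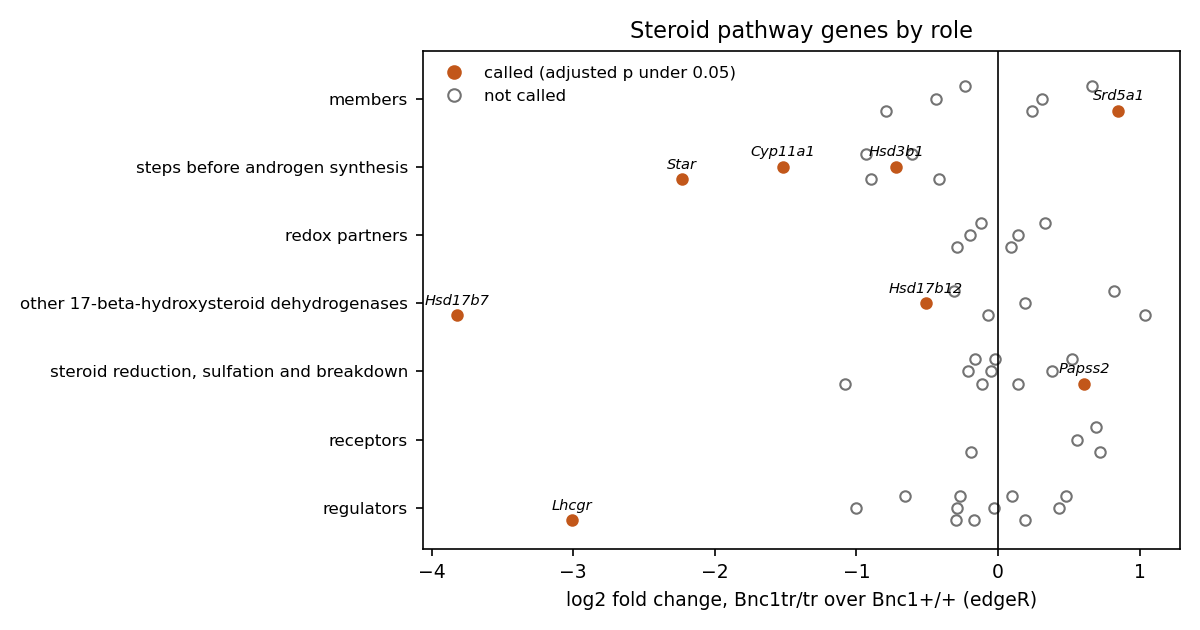
Log2 fold change (horizontal axis, Bnc1tr/tr over Bnc1+/+, edgeR) of every tested gene of the pathway by role (rows), filled orange and named where the adjusted p was under 0.05 and open where it was not, with a small vertical offset that carries no value. Of the steps before androgen synthesis all 7 points lie left of 0, whereas the redox partners lie between −0.29 and 0.33.

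Of 13 genes of steroid reduction, sulfation and breakdown, 10 were tested and 1 rose (median log2 fold change −0.03), beside 2.88% of all tested genes called higher. Papss2, which makes the sulfate donor used by sulfotransferases, rose from 40.7, 41.9 and 36.4 CPM to 65.1, 64.6 and 51.8 CPM (log2 fold change 0.61, SE 0.11, edgeR adjusted p = 0.0221). Its genotypes did not overlap, as for 30.8% of all tested genes, but the call was lost without any 1 of the wild-type ovaries (adjusted p = 0.0625, 0.0816 and 0.0827). Cyp1b1, which hydroxylates estrogens, had 213 to 273 CPM in Bnc1+/+ and 259 to 369 CPM in Bnc1tr/tr (log2 fold change 0.38, edgeR adjusted p = 0.185). Akr1c14, a 3α-hydroxysteroid dehydrogenase that acts on the products of 5α-reductase, had 144 to 221 CPM and 123 to 294 CPM (0.14, edgeR adjusted p = 0.82). The second 5α-reductase gene, Srd5a2, had 3.53, 2.78 and 3.51 CPM in Bnc1+/+ and 0.568, 2.65 and 1.44 CPM in Bnc1tr/tr. Its values did not overlap, as for 30.8% of all tested genes. Its log2 fold change of −1.08 (edgeR adjusted p = 0.215) was opposite in sign to that of Srd5a1. Srd5a2 was picked after its values were seen. Sts was not analysed here.

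None of the 4 tested receptor genes passed the test in edgeR (median log2 fold change 0.63). Esr2, the estrogen receptor of granulosa cells, had 148, 115 and 176 CPM in Bnc1+/+ and 309, 182 and 217 CPM in Bnc1tr/tr (log2 fold change 0.69, SE 0.22, edgeR adjusted p = 0.102), without overlap, as for 30.8% of all tested genes. Esr1, the estrogen receptor of theca and stroma, had 25.5 to 35.3 CPM and 31.9 to 62.8 CPM (0.72, edgeR adjusted p = 0.117). Both passed with DESeq2 (adjusted p = 0.015 for Esr2 and 0.0278 for Esr1), and Esr1 passed in edgeR without mutant replicate 1 (adjusted p = 0.0193). Rxfp2, the receptor of INSL3, had 0 to 9 counts per ovary and was not tested.

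Of 12 regulators, 1 fell and none rose (median log2 fold change −0.22), beside 4.19% of all tested genes called lower. Lhcgr, the receptor of luteinizing hormone on theca, luteal and mature granulosa cells, fell from 544, 799 and 727 CPM to 92.7, 85.9 and 78.9 CPM (log2 fold change −3.01, SE 0.16, edgeR adjusted p = 0.000235), and it stayed called in all 13 alternatives. Its 3 mutant values were close together. Cyp17a1, a gene that this receptor controls in theca cells, differed 64.3-fold between the same ovaries. Lhcgr counts of whole ovary do not separate theca cells from luteal and granulosa cells, and the relation of Lhcgr to Cyp17a1 was not tested. The nuclear receptors Nr5a2 (404 to 618 CPM in Bnc1+/+ and 397 to 575 CPM in Bnc1tr/tr, log2 fold change −0.17, edgeR adjusted p = 0.631) and Nr5a1 (343 to 365 CPM and 317 to 382 CPM, −0.03, edgeR adjusted p = 0.859), which bind steroidogenic promoters, did not pass.

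Markers of the cell types that make these steroids were compared in the same way, beside 2.88% of all tested genes called higher and 4.19% called lower. The summed CPM of 6 theca markers other than Insl3 and Cyp17a1 was 423, 410 and 427 in the Bnc1+/+ and 644, 478 and 525 in the Bnc1tr/tr ovaries, and 1 of the 6 rose, Nr2f2 (log2 fold change 0.53, edgeR adjusted p = 0.0378), but none was called without any 1 of the wild-type ovaries or mutant replicate 1. The other abundant one, the Hedgehog receptor gene Ptch1, had 103 to 122 CPM and 131 to 216 CPM (0.53, edgeR adjusted p = 0.121). The theca sum was highest in mutant replicate 1, where Cyp17a1 and Insl3 were highest, and lay above all wild-type ovaries in mutant replicates 2 and 3, where both genes were lowest; its part in the levels of these genes was not tested. The sum of 10 granulosa markers was 4593 to 5634 in Bnc1+/+ and 5039 to 7920 in Bnc1tr/tr, with 2 genes higher, Amh (log2 fold change 1.06, edgeR adjusted p = 0.0294) and its receptor gene Amhr2 (0.62, edgeR adjusted p = 0.00589). Of the 6 luteal markers 4 fell, led in abundance by the lipoprotein receptor gene Scarb1 (−1.86, edgeR adjusted p = 0.000408) and Sfrp4 (−2.54, edgeR adjusted p = 0.0174). Over the 13 alternatives 1 to 4 granulosa markers were higher and 1 to 4 luteal markers lower, with 1 luteal marker left without Bnc1+/+ replicate 4 or 7. Of the 9 oocyte markers 3 rose (0 to 5 over the alternatives), and their sum was 524 to 685 in Bnc1+/+ and 655 to 1002 in Bnc1tr/tr. The theca sum, like Srd5a1, was higher in every mutant ovary than in any wild-type ovary, and its part in the Srd5a1 difference was not tested. The single theca markers were mixed in mutant replicate 2. There Nr2f2 (166 against 92.4 to 109 CPM in Bnc1+/+), Ptch1 and Gli1 lay above every wild-type ovary. Enpep (38.6 against 53.3 to 57.2 CPM) and Tcf21 (84.6 against 89.4 to 104 CPM) lay below every wild-type ovary, and Hhip lay within their range.

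**Figure D5:**
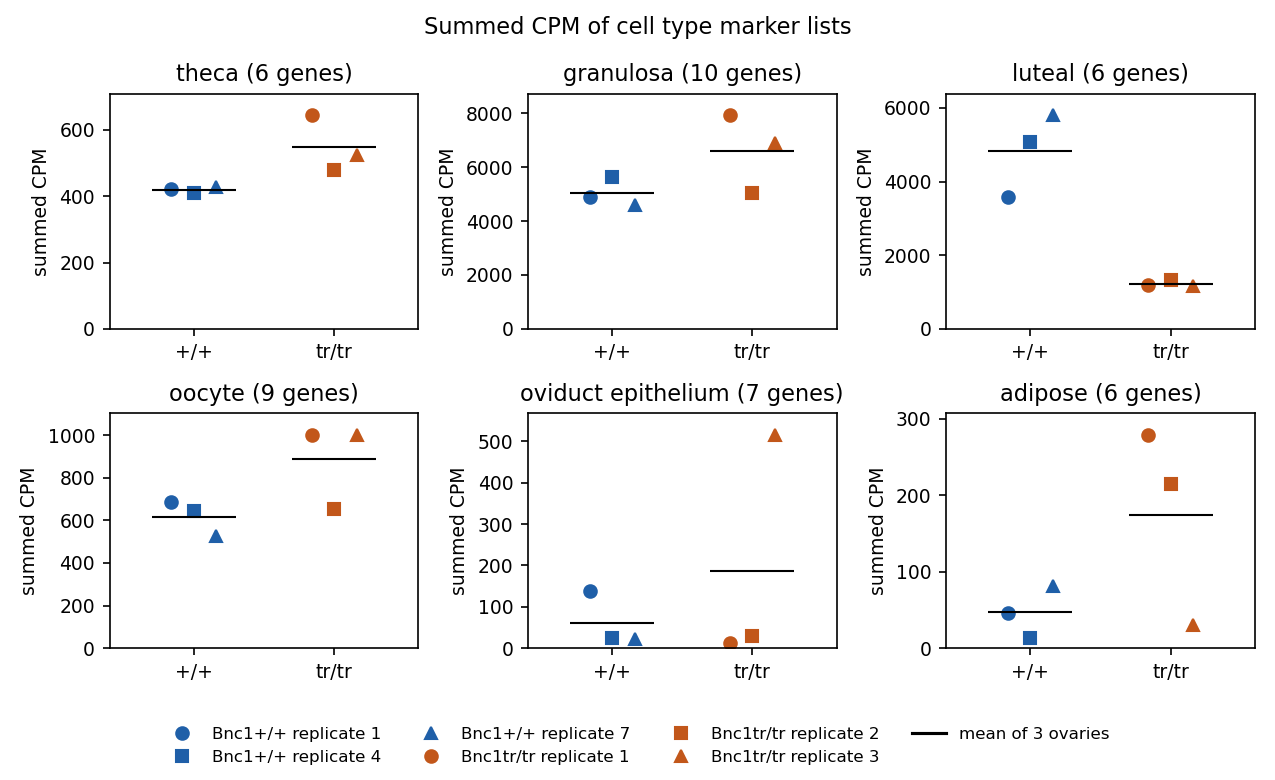
Summed CPM of the genes of 6 marker lists (vertical axes from 0) in the 3 Bnc1+/+ (blue) and 3 Bnc1tr/tr (orange) ovaries, with the marker shape giving the replicate and the black line the mean. Theca sums were higher and luteal sums lower in every Bnc1tr/tr ovary than in any Bnc1+/+ ovary, the oviduct sum stood out in Bnc1tr/tr replicate 3 (516), and the adipose sum in Bnc1tr/tr replicates 1 and 2 (279 and 215). Single theca genes were mixed in Bnc1tr/tr replicate 2, with Enpep and Tcf21 below and Nr2f2, Ptch1 and Gli1 above every Bnc1+/+ ovary.

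Genes induced by the surge of luteinizing hormone, which lowers Cyp17a1 and Cyp19a1 in the follicle, were also examined, and none of the 5 tested passed the test, although 1 was called higher without mutant replicate 2. Ptgs2 had 1 to 10 counts and Areg 0 to 22 counts per ovary. The sum of 8 such genes was 86.5, 53.8 and 71.9 CPM in Bnc1+/+ and 39.3, 81.7 and 104 CPM in Bnc1tr/tr. Most of it was Adamts1 (34.7 to 97.4 CPM). Within each genotype Adamts1, and with it the sum, was lowest in the ovary with the highest Cyp17a1, Bnc1+/+ replicate 4 and Bnc1tr/tr replicate 1. The other genes did not share this order. The mean log2 CPM of the 5 tested genes, which weighs each gene equally, was lowest in Bnc1+/+ replicate 7 (0.89) and Bnc1tr/tr replicate 2 (1.01). Pgr had its highest level of all 6 ovaries in Bnc1tr/tr replicate 1 (1.81 CPM). The relation of these genes to Cyp17a1 was not tested. The adrenal cortex, another source of steroid enzymes near the ovary, was represented by Cyp21a1 with 0 to 3 counts and Cyp11b1 with 0.0711 to 10.6 CPM. Cyp11b1 was lowest in mutant replicate 1 and highest in mutant replicates 2 and 3, whereas Mc2r, with 0 to 12 counts, was highest in mutant replicate 1 (12 counts), and Cyp11b2 had 0 to 6 counts. None of the 5 stromal markers passed the test (summed CPM 1681 to 2035 and 1536 to 2720).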

How the data were processed

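Total RNA of 3 Bnc1+/+ and 3 Bnc1tr/tr ovary samples was extracted with TRIzol, and single-end libraries (Ion Total RNA-Seq Kit) were run on an Ion Proton sequencer. Counts were deposited by the authors as whole numbers of reads per gene symbol, not normalized. The submitters' processing notes name the builds mm10 and Sscrofa10.2; the aligner, the counter, the annotation and the use of strand are not given in the sources used here. All 6 columns of counts were used.

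Genes were filtered with filterByExpr (minimum count 10; 19423 of the 31717 genes with a count were kept), scaled with TMM and compared with edgeR 4.0.16 in R 4.3.3 (glmQLFit and glmQLFTest, two-sided, Benjamini-Hochberg adjustment over all genes tested, threshold 0.05). CPM are counts per 1000000 counts of the library total multiplied by its TMM factor. The SE is the log2 fold change divided by the square root of its F statistic. Depth, 25247770 to 34406296 counts per ovary, limits genes near 3 counts. Counts of ovaries of the same genotype differed by 15.6 to 58.5 times the counting noise (chi-square per degree of freedom), so none was a duplicate. Ratios within an ovary were compared with exact permutation tests over the 20 arrangements of the ovaries. Exon lengths and positions came from GENCODE M21 (GRCm38), and older symbols were matched through RefSeq synonyms. Alternatives were DESeq2's size factors, library size, no filter, at least 10 counts in every ovary, DESeq2 1.42.0, limma-voom (limma 3.58.1), a robust fit, and each ovary left out in turn, and for ratios a pseudocount of 2 in place of 0.5. The fit was tested on simulated data.

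The 8 genes and all lists were chosen with earlier results of these data known. Genes named were the 8, Bnc1, the called genes of each pathway list (or its 2 most abundant tested genes where fewer than 2 were called), the 2 most abundant markers of a list and those near 0, and the 3 nearest patterns; Hsd17b3, Srd5a2, Nr2f2, Amh, Amhr2, Cyp11b1 and Jak3 were named after their values were seen.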

Additional observations from a re-analysis of the deposited data

How the results depend on the processing

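Of the 7 genes tested, Hsd17b1, Hsd17b2, Por and Insl3 kept their direction and stayed above the threshold in all 13 alternatives, Cyp19a1 in 12 and Cyp17a1 in 11. Srd5a1 was called in 8 of the 13. The exceptions were Cyp17a1 with limma-voom (log2 fold change −0.80) and the fits that left out an ovary. Leaving out each ovary in turn gave log2 fold changes of −3.49 to 2.41 for Cyp17a1, −1.18 to 0.52 for Cyp19a1 and 0.70 to 1.04 for Srd5a1, and 0 to 1 of the 7 genes called. It moved the difference in log2 ratio to between −0.47 and 2.26 for Cyp19a1 to Cyp17a1 and between −0.56 and 2.15 for Insl3 to Cyp17a1; in the first, leaving out mutant replicate 2 or 3 turned the sign, and in the second, leaving out wild-type replicate 4 or mutant replicate 2 or 3. The fits without an ovary rest on fewer samples; beyond that the cause was not tested. Outside the 8 genes, Bnc1 ran from −0.10 to 0.26, with −0.10 without mutant replicate 1, and Akr1c14 from −0.28 to 0.38, with −0.28 without mutant replicate 1 and −0.00 without wild-type replicate 1. Star, Cyp11a1 and Hsd3b1 lost their call without any wild-type ovary or without mutant replicate 3, Star also in the robust fit and Hsd3b1 also with library size alone and with at least 10 counts in every ovary. Over all genes 1372 were called, 2420 with DESeq2 and between 357 and 1384 without 1 ovary, the lowest without wild-type replicate 4; 4698 had an unadjusted p under 0.05. Scaling by library size alone moved the median log2 fold change of all genes from 0.018 to 0.118, and 64.4% of the calls were then higher in Bnc1tr/tr against 40.7%. No paired analysis was possible because the genotypes share only replicate number 1 and the sources used here do not give which ovaries were littermates. Sult1e1 could not be compared at this depth.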

Other observations

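Of the 13 genes whose spread within a genotype exceeded that of Cyp17a1, 11 were highest in Bnc1+/+ replicate 1 and in Bnc1tr/tr replicate 3, and none was highest in Bnc1+/+ replicate 4 and Bnc1tr/tr replicate 1 as Cyp17a1 was. These genes were found after the data were seen. They include the oviduct glycoprotein gene Ovgp1, with 105, 11.7 and 15.1 CPM in Bnc1+/+ and 1.6, 18 and 423 CPM in Bnc1tr/tr, and the axonemal dynein gene Dnah5 of motile cilia, with 6.42, 0.966 and 0.207 CPM against 0.178, 0.5 and 21.4 CPM. In Bnc1tr/tr replicate 3, where both peaked, Cyp17a1 had 5.46 CPM, Cyp19a1 15.5 CPM and Insl3 2.57 CPM.

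Cyp17a1 and Star, which both act in steroid synthesis, differed in their order over the ovaries. Cyp17a1 acts in theca cells, whereas Star is also expressed strongly by luteal cells. Bnc1tr/tr replicate 1 had the highest Cyp17a1 (235 CPM) and the lowest Star (151 CPM) of the 6, while Bnc1+/+ replicate 4 was high in both (124 and 2563 CPM). These are values of single ovaries.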
